A study of Mus musculus with 6 samples.

Results

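Heparan sulfate proteoglycan (HSPG) core proteins are the polypeptides that carry heparan sulfate chains, and 10 of their genes were followed in mouse podocytes (MPCs): the syndecans Sdc1, Sdc2, Sdc3 and Sdc4, the glypicans Gpc1, Gpc3, Gpc4 and Gpc6, and the secreted proteins perlecan (Hspg2) and agrin (Agrn). The genes were chosen by name, with earlier results of these data known. Each matched exactly 1 of the 24469 loci of the deposited table, so the members are 10 of 24469 loci. RNA-Seq had been run on 6 libraries of poly(A) RNA from MPCs, a conditionally immortalized podocyte line, in 3 groups of 2. All cells had been grown at 33 °C in 5.5 mM glucose with interferon gamma, differentiated without it for 10 days at 37 °C, starved of serum for 12 h and exposed to 25 mM glucose (high glucose, HG) for 12 h. The HG group received no FGF1, and the HG + rFGF1WT group was first given wild-type FGF1 at 100 ng/mL for 1 h. The HG + rFGF1ΔHBS group received at the same dose and time an FGF1 variant with a mutated heparan sulfate binding site. MPCs are 1 cell line, and the sources used here do not say whether the HG cells had a mock pretreatment. No library of cells kept in normal glucose was used here, which leaves the effect of HG on these genes unmeasured. Nothing in the sources used here says whether the 2 libraries of a group came from separate cultures, so the p-values measure the spread between these libraries, which may be technical.

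HSPGs sit on the cell surface and in the extracellular matrix, where their sulfated chains bind growth factors. For FGFs, heparan sulfate is a co-receptor: it bridges the ligand and the FGF receptor and helps receptors to dimerize, which is the contact that the ΔHBS mutations weaken. Syndecans span the membrane and signal through a short conserved tail, glypicans are held to the outer face of the membrane by a lipid anchor, and perlecan and agrin are large secreted proteins of basement membranes. Agrin is the main HSPG of the glomerular basement membrane, which podocytes help to build and stand on, and syndecan-4 is a component of focal adhesions.

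The 4 syndecans are shown first by a stretch that they share near the coding end. It is the 36-base window at the start of the cytoplasmic tail in which the 4 are most alike among the last 108 coding bases of each GENCODE transcript; the rest of the coding sequences was not searched. Capitals mark the 27 of 36 positions (75.0%) that are identical in all 4 genes:
Sdc1: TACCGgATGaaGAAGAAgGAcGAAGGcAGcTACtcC
Sdc2: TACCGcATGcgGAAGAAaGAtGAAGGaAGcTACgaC
Sdc3: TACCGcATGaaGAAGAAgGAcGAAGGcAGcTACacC
Sdc4: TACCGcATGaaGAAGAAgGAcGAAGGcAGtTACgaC
Sdc3 and Sdc4, the pair whose mRNAs moved in opposite directions, were identical at 33 of these 36 bases (91.7%). The closest pair was Sdc1 and Sdc3, with 34 identical bases (94.4%), and the most distant was Sdc1 and Sdc2, with 28 (77.8%). The coding sequences differ more in length, at 597 bases for Sdc4, 609 for Sdc2, 936 for Sdc1 and 1329 for Sdc3.

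The sequence upstream of the start site is given for the same pair, because one rose and the other fell. RefSeq windows (GRCm38.p6) of 300 bases, from 250 before to 50 after the start, were found for 7 of the 10 members, in 8 windows since Agrn has 2 starts. Windows of Sdc2, Gpc1 and Gpc6 were not used here. The 250 bases before the start follow, with each GC box (GGGCGG or its reverse complement, overlapping matches included) in capitals. The Sdc4 stretch lies at chr2:164443189-164443438 on the minus strand and the Sdc3 stretch at chr4:130792287-130792536 on the plus strand. The GENCODE record of the Sdc4 gene extends further upstream than the RefSeq start used here, to position 164443887, so the Sdc4 stretch lies inside that record:
Sdc4: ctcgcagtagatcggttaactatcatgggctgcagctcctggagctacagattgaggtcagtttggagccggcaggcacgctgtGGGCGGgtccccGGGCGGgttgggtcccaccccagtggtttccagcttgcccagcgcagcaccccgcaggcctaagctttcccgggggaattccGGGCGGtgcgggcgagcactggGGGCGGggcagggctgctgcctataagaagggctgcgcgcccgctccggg
Sdc3: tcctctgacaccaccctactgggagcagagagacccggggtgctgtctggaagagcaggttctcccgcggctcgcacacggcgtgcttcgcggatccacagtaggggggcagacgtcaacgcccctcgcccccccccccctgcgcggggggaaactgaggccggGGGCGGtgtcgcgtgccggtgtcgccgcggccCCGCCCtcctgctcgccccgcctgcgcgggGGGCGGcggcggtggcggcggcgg
Sdc4 held 4 GC boxes and Sdc3 held 3. All 8 windows of the members held at least 1, against 35.7% of all 32851 RefSeq windows of this length, and the members' windows had a GC content of 61.3% to 83.3%. None of the 8 held CCGGAAG (ETS), TGANTCA (AP-1) or TGTTTAC (FOXO) on either strand, letters present in 8.86%, 7.81% and 3.65% of all windows. A missing match says only that these letters are not in these windows.

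Levels are given in FPKM, fragments per kilobase of exon scaled to the mapped reads of the library, which allows genes of different length to be compared. In HG alone, perlecan mRNA was the most abundant member, at 141 ± 2.28 FPKM (mean ± SD, n = 2), followed by Sdc4 at 80.7 ± 4.60 and Agrn at 78.6 ± 4.43, whose libraries overlapped. Gpc4 (34.1 ± 8.61), Sdc1 (26.4 ± 0.199) and Gpc1 (25.6 ± 0.518) formed a middle range, and Sdc2 (12.7 ± 5.14), Gpc6 (6.09 ± 0.0221) and Sdc3 (5.34 ± 0.0442) were lower. Over all 6 libraries, Hspg2 had a higher mean than 99.5% of the 24469 loci, Sdc4 than 99.2% and Agrn than 98.7%, while Sdc3 exceeded 67.9%. Gpc3 was at the other end: it was listed at 0.0322 and 0.0166 FPKM in HG, at 0 in both rFGF1WT libraries, and at 0.0160 and 0 with rFGF1ΔHBS. If the smallest step between low values stands for 1 fragment, the highest of these corresponds to 1.63 fragments, so a difference in Gpc3 was not detectable at this depth. Gpc3 lies next to Gpc4 on chromosome X, with 107173 bases between the 2 genes, and the mean of Gpc4 over all 6 libraries was 25.4 FPKM.

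By mean FPKM, 2 neighbouring pairs changed order with rFGF1WT (Sdc1 with Gpc4, and Sdc2 with Gpc1) and 1 with rFGF1ΔHBS (Sdc1 with Gpc4). Sdc4 stayed above Agrn in all 3 groups, and with either protein its libraries no longer overlapped those of Agrn, with 119 ± 6.0 against 73.1 ± 2.36 FPKM under rFGF1WT and 118 ± 5.54 against 80.0 ± 1.37 under rFGF1ΔHBS. Sdc1 moved above Gpc4, which it had been below in HG alone, with no overlap of libraries in any of the 3 groups. Gpc1 came down into the range of Sdc2, and the libraries of these 2 genes overlapped in both treated groups. Perlecan stayed first, and Gpc6 and Sdc3 stayed last among the members tested.

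**Figure D1:**
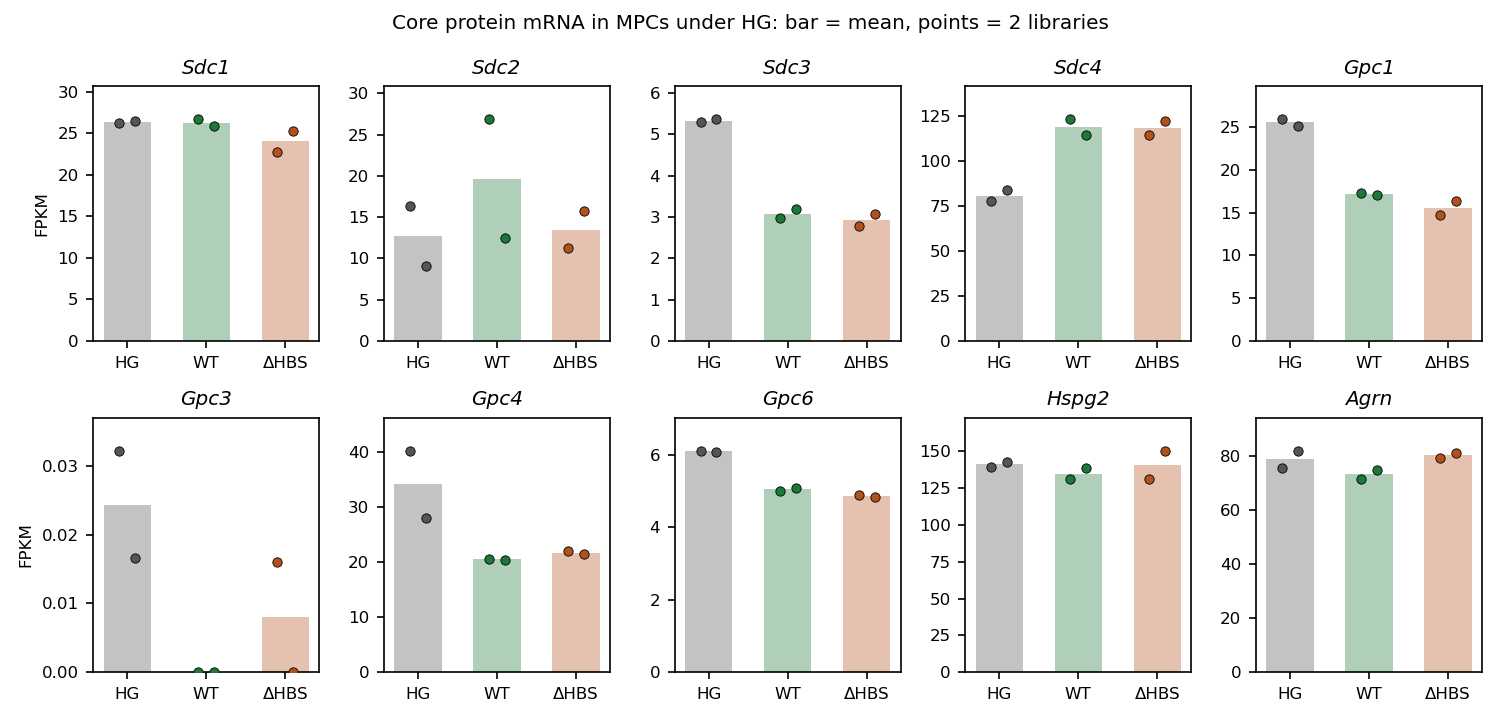
FPKM (linear axis from 0, a scale of its own for each gene) of the 10 core proteins in HG, HG + rFGF1WT (WT) and HG + rFGF1ΔHBS (ΔHBS); bars are means and points the 2 libraries of each group. Sdc4 lies at 77.5 and 84.0 in HG and between 114 and 123 in the 4 treated libraries, Sdc3 and Gpc1 lie lower in every treated library than in HG, and the Sdc2 libraries scatter within each group.

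The first question was whether either protein moved HSPG core protein mRNA under HG. Of the 10 members, 9 had a mean of at least 1 FPKM and were tested with limma on log2(FPKM + 1), with Benjamini-Hochberg adjustment over all 10562 loci tested. With rFGF1WT, 3 of the 9 had an adjusted p under 0.05 (Sdc4 higher, Sdc3 and Gpc1 lower), against 6.19% of all loci tested, or 3.26% for higher and 2.94% for lower. With rFGF1ΔHBS the count was again 3 of 9, with Sdc4 higher and Sdc3 and Gpc1 lower, against 6.26% of all loci, or 3.37% higher and 2.89% lower. None of these passed the 2-fold limit that the study set beside its q value, which 1.01% and 0.899% of loci passed. At an unadjusted p under 0.05 there were 5 of 9 members in each comparison, against 24.8% and 24.9% of all loci tested. The 2 HG libraries serve in both comparisons, which are therefore not independent.

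Seen by library, the rFGF1WT libraries lay above both HG libraries for 1 member and below both for 6, where 24.1% and 34.1% of all loci did so. The rFGF1ΔHBS libraries lay above for 1 and below for 5, against 24.4% and 32.9%. The median difference over the 9 members was -0.10 with rFGF1WT and -0.13 with rFGF1ΔHBS on the log2(FPKM + 1) scale, and that of all loci was -0.04 in both. The median size of the difference, whatever its sign, was 0.55 and 0.27 for the members and 0.18 and 0.18 for all loci.

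Sdc4 (chr2:164424247-164443887, minus strand, in 5 exons), the focal adhesion syndecan, was the only member called higher. It measured 77.5 and 84.0 FPKM in HG, 123 and 115 with rFGF1WT, and 114 and 122 with rFGF1ΔHBS. Each of the 4 treated libraries exceeded the higher HG library, and the treated groups overlapped. The mean was 1.47-fold that of HG with each protein, and the fitted difference was 0.55 ± 0.07 (SE; 95% interval 0.36 to 0.75; adjusted p = 0.0291) with rFGF1WT and 0.55 ± 0.07 (0.36 to 0.74; adjusted p = 0.0302) with rFGF1ΔHBS.

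Sdc3 (chr4:130792537-130826319, plus strand), the syndecan with the longest ectodomain and best known from neurons, fell. Its level was 5.30 and 5.37 FPKM in HG, 2.98 and 3.18 with rFGF1WT, and 2.79 and 3.07 with rFGF1ΔHBS, again with no overlap between HG and the treated libraries. Mean FPKM fell by 42.2% with rFGF1WT and fell by 45.1% with rFGF1ΔHBS. The fitted differences were -0.63 ± 0.07 (adjusted p = 0.0236) and -0.69 ± 0.07 (adjusted p = 0.0213), which understate the change of a gene this low because 1 is added before the logarithm. The antisense genes Gm12970 and Gm26716 overlap Sdc3, and whether counting used strand is not stated in the sources used here, but neither was above 0.0303 FPKM in any library.

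The remaining syndecans did not pass the test. Sdc1 (chr12:8771323-8793715, plus strand), the main syndecan of epithelia, measured 26.2 and 26.5 FPKM in HG, 26.7 and 25.8 with rFGF1WT, and 22.7 and 25.3 with rFGF1ΔHBS. Its fitted difference from HG was -0.01 (95% interval -0.19 to 0.18) and -0.13 (-0.32 to 0.05). Sdc2 (chr15:32920723-33034935, plus strand), a syndecan of mesenchymal cells, had the largest spread of the tested members, with 16.3 and 9.07 FPKM in HG, 26.9 and 12.5 with rFGF1WT, and 11.3 and 15.7 with rFGF1ΔHBS. The highest library was 2.96-fold the lowest, the groups overlapped, and the interval for rFGF1WT ran from -0.71 to 1.82, which includes no change as well as a rise of over 2-fold. The locus of Sdc2 lists 2 Ensembl transcripts, of which 1 is annotated to Sdc2, and fragments of the 2 transcripts cannot be separated in this table.

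Among the glypicans, Gpc1 (chr1:92831645-92860779, plus strand), a co-receptor of FGFs in several cell types, fell with both proteins. Its level was 25.9 and 25.2 FPKM in HG, 17.3 and 17.1 with rFGF1WT, and 14.7 and 16.4 with rFGF1ΔHBS. Its mean fell by 32.8% with rFGF1WT and fell by 39.2% with rFGF1ΔHBS, with fitted differences of -0.55 ± 0.07 (adjusted p = 0.0276) and -0.69 ± 0.07 (adjusted p = 0.0204). Genes that overlap Gpc1 on the other strand (Gm29480 and Ankmy1) reached at most 0.0844 FPKM.

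Gpc4 (chrX:52053021-52165252, minus strand), a glypican that binds Wnt and FGF ligands, measured 40.2 and 28.0 FPKM in HG, 20.6 and 20.4 with rFGF1WT, and 21.9 and 21.5 with rFGF1ΔHBS. Every treated library was below both HG libraries, but the HG libraries themselves were far apart. The fitted differences of -0.68 ± 0.18 and -0.61 ± 0.18 had adjusted p values of 0.111 and 0.134. Without HG replicate 2 they were -0.94 and -0.86, and without HG replicate 1 they were -0.43 and -0.35. Their size thus depended on which HG library was kept. Gpc6 (chr14:116925315-117976544, plus strand), which spans 1051230 bases and is the longest gene of the set, had narrow groups, at 6.11 and 6.08 FPKM in HG, 5.01 and 5.09 with rFGF1WT, and 4.90 and 4.83 with rFGF1ΔHBS. Its differences of -0.23 ± 0.06 and -0.27 ± 0.06 missed the threshold, with adjusted p values of 0.0987 and 0.0691.

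Neither secreted HSPG passed the test. Perlecan (Hspg2, chr4:137468769-137570630, plus strand, with up to 97 exons) measured 139 and 142 FPKM in HG, 131 and 138 with rFGF1WT, and 131 and 150 with rFGF1ΔHBS. The intervals of the difference from HG were -0.28 to 0.15 and -0.22 to 0.21. Agrin (Agrn, chr4:156165290-156197488, minus strand) measured 75.5 and 81.8 FPKM in HG, 71.4 and 74.8 with rFGF1WT, and 79.0 and 81.0 with rFGF1ΔHBS, with intervals of -0.26 to 0.06 and -0.13 to 0.19. A change of 1.5-fold in either direction lay outside all 4 intervals.

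The 3 called genes kept their direction under every alternative in which they were tested, but their calls were close to the threshold. When each of the 6 libraries was left out in turn, the adjusted p ran for Sdc4 from 0.0691 to 0.116 (rFGF1WT) and from 0.0661 to 0.112 (rFGF1ΔHBS), for Sdc3 from 0.0562 to 0.104 and from 0.0572 to 0.0940, and for Gpc1 from 0.0511 to 0.116 and from 0.0495 to 0.0920, where the lowest value of Gpc1, without rFGF1ΔHBS replicate 2, was the only one that kept a call. With only the 4 libraries compared, the adjusted p of these genes lay between 0.0511 and 0.0692, and without the filter on low FPKM it was 0.0643 and 0.0641 for Sdc4, 0.0578 and 0.0495 for Sdc3, and 0.0486 and 0.0359 for Gpc1.

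**Figure D2:**
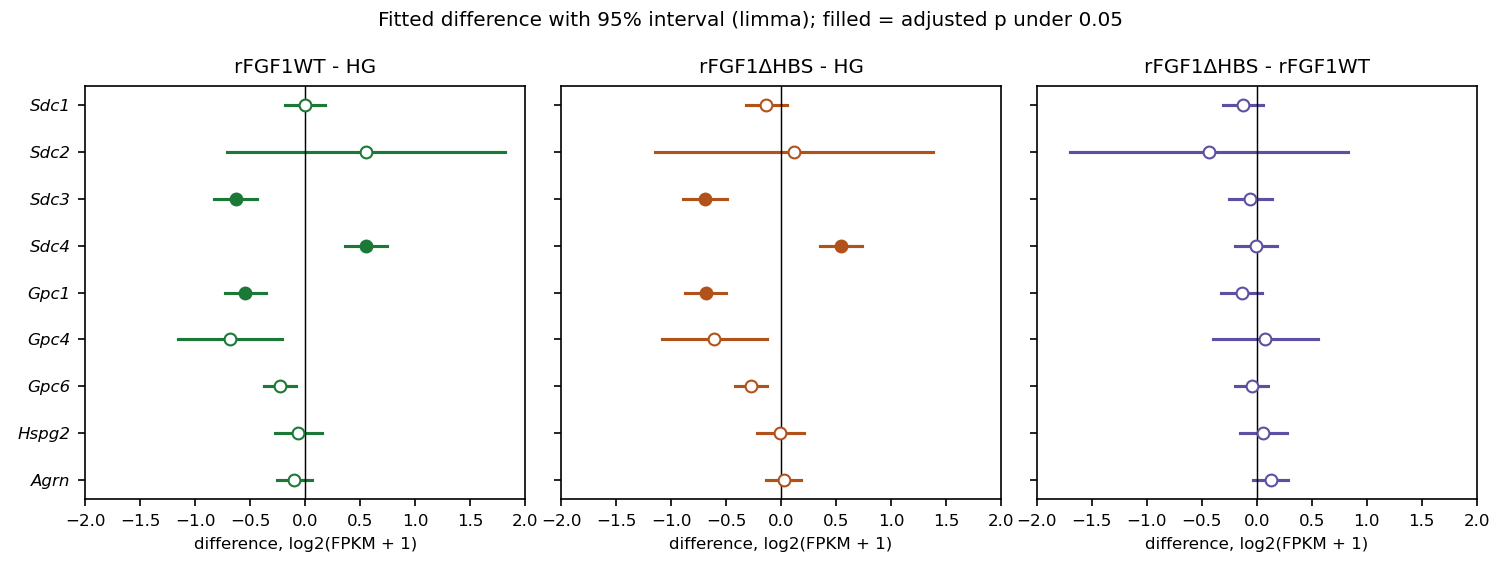
Fitted difference on the log2(FPKM + 1) scale with its 95% interval (limma, horizontal axis) for the 9 tested core proteins (vertical axis) in 3 comparisons; filled points have an adjusted p under 0.05. Sdc4 lies at 0.55 and Sdc3 and Gpc1 lie between -0.55 and -0.69 in both comparisons with HG, and no point is filled where the 2 proteins are compared.

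The second question was whether the mutations in the heparan sulfate binding site changed the response. Between rFGF1ΔHBS and rFGF1WT, which differ by mutations in the heparan sulfate binding site and were given at the same dose and time, limma called 0 of the 9 members, against 0.549% of all loci tested, and 0 of 9 had an unadjusted p under 0.05, which 4.87% of all loci had. The libraries of the 2 groups did not overlap for 5 members, 2 higher and 3 lower with rFGF1ΔHBS, where 34.5% of all loci did not overlap in one direction or the other. A p above the threshold does not show that the proteins act alike, so the intervals are given, as rFGF1ΔHBS minus rFGF1WT. They were -0.20 to 0.19 for Sdc4, -0.25 to 0.14 for Sdc3, -0.32 to 0.05 for Gpc1, -0.19 to 0.10 for Gpc6, -0.31 to 0.06 for Sdc1, -0.16 to 0.27 for Hspg2 and -0.03 to 0.29 for Agrn. For these 7 genes, and for Gpc4 with a wider interval (-0.40 to 0.55), a difference of 1.5-fold lay outside the interval. The interval of Sdc2 (-1.70 to 0.83) was the least precise and included such a difference. For Sdc4 the group means were 119 and 118 FPKM.

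Summed over the family, the total differed little between libraries, and the makeup differed between HG and the treated groups. The 10 genes together amounted to 403 to 440 FPKM in the 6 libraries. The syndecans summed to 125 and 125 FPKM in HG, 180 and 156 with rFGF1WT, and 151 and 166 with rFGF1ΔHBS. The glypicans summed to 72.2 and 59.3 FPKM in HG, 42.9 and 42.5 with rFGF1WT, and 41.5 and 42.7 with rFGF1ΔHBS. Syndecans were thus higher and glypicans lower in all 4 treated libraries than in HG, and perlecan with agrin, at 202 to 231 FPKM, overlapped between groups. These sums rest mostly on Sdc4, Gpc4 and Gpc1, whose own values are given above, and were not tested.

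As shares of the summed FPKM, syndecans made up 30.5% ± 0.132 (SD, n = 2) in HG, 40.1% ± 3.10 with rFGF1WT and 37.7% ± 0.198 with rFGF1ΔHBS. Glypicans made up 16.0% ± 2.12, 10.2% ± 0.160 and 10.0% ± 0.430. Within the syndecans, Sdc4 accounted for 64.5% ± 3.83 in HG, 71.0% ± 3.45 with rFGF1WT and 74.6% ± 1.55 with rFGF1ΔHBS, and Sdc3 for 4.26% ± 0.0454, 1.85% ± 0.267 and 1.84% ± 0.000552. The ratio of Sdc4 to Sdc3 mRNA was 14.6 and 15.6 in HG, 41.3 and 36.0 with rFGF1WT, and 41.1 and 39.9 with rFGF1ΔHBS. Within the glypicans the shares of Gpc1 (35.4% to 42.5%) and Gpc4 (47.2% to 55.6%) overlapped between HG and both treated groups, whereas the share of Gpc6 was 8.45% and 10.2% in HG and between 11.3% and 12.0% in the treated libraries, where its own level was lower than in HG.

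**Figure D3:**
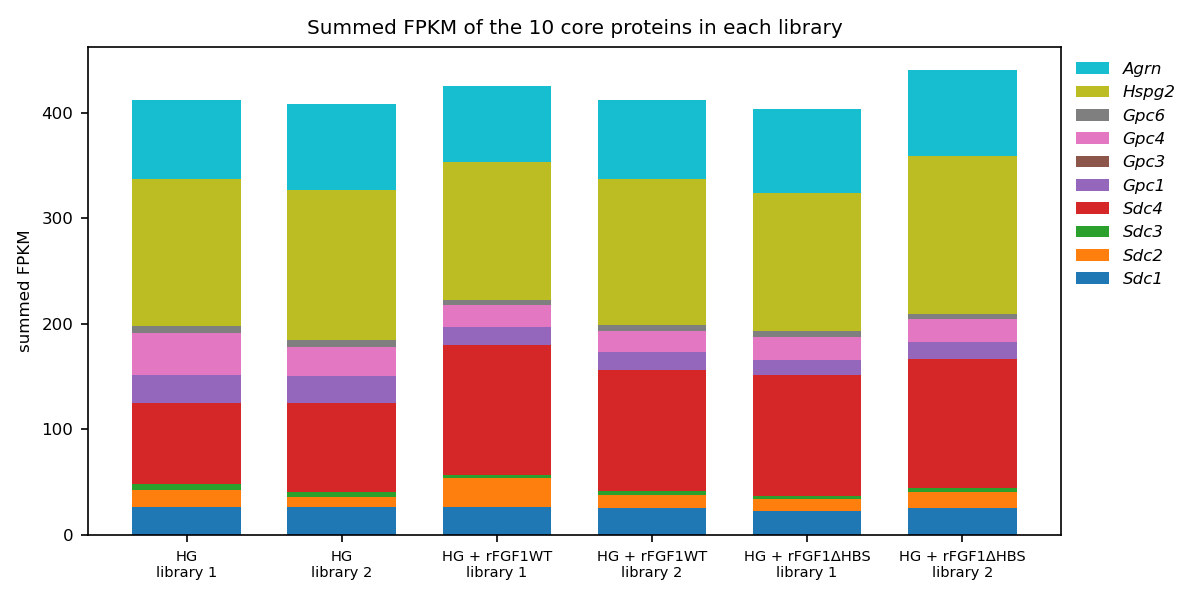
Summed FPKM (vertical axis, from 0) of the 10 core proteins in each of the 6 libraries, with 1 colour per gene. The totals lie between 403 and 440, the Sdc4 segment is taller and the Gpc1 and Gpc4 segments are shorter in the 4 treated libraries, and Gpc3 is too low to see.

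The genes around the core proteins were followed in lists of named genes, chosen with earlier results of these data known. Counts of calls in these lists stand against 6.19% of all loci tested with rFGF1WT, 6.26% with rFGF1ΔHBS and 0.549% between the proteins. Whether any list exceeds that share was not tested. Of 5 tested HSPGs outside the 10 (with Col18a1, the collagen XVIII core protein, the highest at 139 FPKM over all libraries), only Nrp1 was called. Nrp1, a part-time proteoglycan that acts as a receptor for semaphorins and VEGF, measured 9.06 and 9.84 FPKM in HG, 18.2 and 20.2 with rFGF1WT and 20.2 and 18.3 with rFGF1ΔHBS. It rose by 0.95 (adjusted p = 0.0172) and 0.96 (adjusted p = 0.0179). Of 6 tested proteoglycans named for other chains, Ogn, a small leucine-rich proteoglycan, had fitted differences of -0.96 (adjusted p = 0.0234) and -0.85 (adjusted p = 0.0292) and so fell with both proteins, and App, the highest at 199 FPKM, was not called. Mean FPKM of Ogn was 3.35 in HG, 1.24 with rFGF1WT and 1.41 with rFGF1ΔHBS, a change that the added 1 understates.

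Among the tested enzymes that build and edit the chains, 1 gene was called. Of 11 tested genes for the linker and the chain, with Ext1, a subunit of the heparan sulfate polymerase, the highest at 27.2 FPKM, only Fam20b was called. Fam20b, the kinase that phosphorylates the xylose of the linker, measured 13.8 and 12.4 FPKM in HG, 9.53 and 8.98 with rFGF1WT, and 12.7 and 13.2 with rFGF1ΔHBS. It fell by 0.46 with rFGF1WT (adjusted p = 0.0473), had a difference of -0.01 with rFGF1ΔHBS (adjusted p = 0.945), and the difference between the proteins did not pass the test (adjusted p = 0.272). Of 11 tested sulfotransferases, sulfatases and other editing genes, none passed in any comparison, and the highest was the 6-O-sulfotransferase Hs6st1 at 47.5 FPKM. Another 11 listed editing genes averaged under 1 FPKM and were not tested. Of these, 2 are named here after their values were seen. Ndst3 measured 0.244 and 0.248 FPKM in HG, 1.09 and 1.23 with rFGF1WT, and 0.892 and 1.12 with rFGF1ΔHBS. Hs3st6 measured 0.723 and 0.904 FPKM in HG, 0.107 and 0.189 with rFGF1WT, and 0.216 and 0.199 with rFGF1ΔHBS. Hs3st1, a tested 3-O-sulfotransferase also named after its values were seen, ranged from 0.125 to 13.9 FPKM. It measured 5.52 and 0.125 FPKM in HG, 9.94 and 0.198 with rFGF1WT, and 12.2 and 13.9 with rFGF1ΔHBS.

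Genes that release or protect HSPG ectodomains held the only call between the 2 proteins in these lists. Timp3, a matrix-bound inhibitor of metalloproteinases that can cleave syndecan ectodomains, measured 48.1 and 47.4 FPKM in HG, 8.13 and 8.21 with rFGF1WT, and 44.8 and 45.5 with rFGF1ΔHBS. It fell by 2.41 with rFGF1WT (adjusted p = 0.00051), was at -0.08 with rFGF1ΔHBS (adjusted p = 0.351), and was higher with rFGF1ΔHBS than with rFGF1WT by 2.33 (adjusted p = 0.00074). Mmp9, a gelatinase, rose with both, from 1.21 and 1.17 FPKM in HG to 2.91 and 3.15, and to 2.86 and 3.50, by 0.88 (adjusted p = 0.0251) and 0.93 (adjusted p = 0.0231). As for Sdc3, the added 1 makes these differences understate the change in mean FPKM, from 1.19 in HG to 3.03 and 3.18. Timp3 and Mmp9 held the only calls among 9 tested genes of this list, whose highest member was the metalloproteinase Adamts1 at 65.2 FPKM.

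Of 11 tested intracellular partners of syndecans, Prkca, the kinase that syndecan-4 recruits and activates at focal adhesions, rose from 5.92 and 6.18 FPKM in HG to 8.59 and 8.75 with rFGF1WT and 8.64 and 8.97 with rFGF1ΔHBS, by 0.46 (adjusted p = 0.0272) and 0.48 (adjusted p = 0.0259). The highest of that list, the membrane-cytoskeleton linker Ezr, was at 124 FPKM and was not called. Of 14 tested basement membrane genes and agrin partners, Itgb1, the beta subunit of the laminin and collagen integrins, rose by 0.30 (adjusted p = 0.0404) and 0.27 (adjusted p = 0.0494) and was the highest at 218 FPKM, and Nid2, which links laminin to collagen IV and perlecan, fell (-0.97, adjusted p = 0.0355, and -1.05, adjusted p = 0.0302). Of 6 tested FGF receptors and co-receptors, the locus shared by Fgfr2 and Ctbp2 fell (-0.75, adjusted p = 0.0170, and -0.60, adjusted p = 0.0248). Fragments of these 2 genes cannot be separated in this table, so the fall cannot be assigned to Fgfr2. The decoy-like receptor Fgfrl1 was the highest of that list at 10.2 FPKM. The medians of these 8 lists lay between -0.43 and 0.10 in the comparisons with HG.

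**Figure D4:**
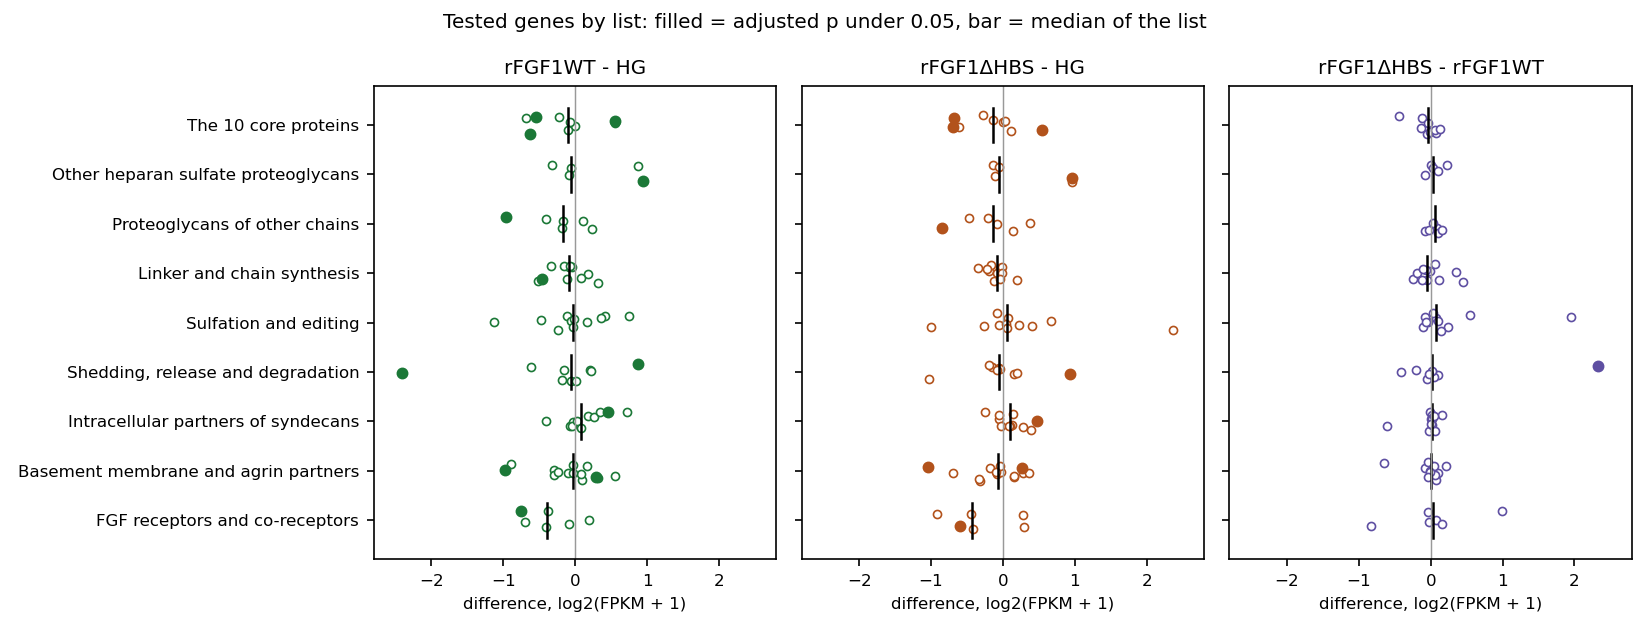
Fitted difference on the log2(FPKM + 1) scale (horizontal axis) of each tested gene, by list (vertical axis), in 3 comparisons; filled points have an adjusted p under 0.05 and vertical bars are list medians. With rFGF1WT the filled point at -2.41 is Timp3, which is also the filled point at 2.33 where rFGF1ΔHBS is compared with rFGF1WT, and the open point at 2.37 under rFGF1ΔHBS is Hs3st1.

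Genes that ERK signalling is known to induce were also listed with earlier results of these data known, so their counts only describe the list. With rFGF1WT, 7 of 16 tested were called higher, against 3.26% of all loci, and 0 lower, against 2.94%. With rFGF1ΔHBS, 8 of 16 were called higher, against 3.37%, and 0 lower, against 2.89%. The medians were 1.12 and 1.18. Etv5 rose by 2.56 and 2.61, Etv4 by 2.83 and 2.74, and Ccnd1 by 2.70 and 2.73. Of 12 housekeeping genes, Actb was called higher with rFGF1WT (0.86, adjusted p = 0.0450), and none was called with rFGF1ΔHBS, where limma gave Actb 0.75 (adjusted p = 0.0574). The FPKM of a library summed to between 179594 and 185168.

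The label of the cells was checked against markers. Of 14 podocyte markers 13 were in the table and 7 were tested. Defining ones were low, with Wt1 at 0.0376 and Nphs1 at 0.781 FPKM over all libraries, while Synpo (6.82), Podxl (16.0) and Cd2ap (60.7) were measured. Nes was the only podocyte marker called, higher by 0.89 (adjusted p = 0.00576) and 0.97 (adjusted p = 0.00510). The 6 endothelial markers summed to 0.297 to 0.737 FPKM, and none of the 3 mesangial (sum of all 6 listed, 46.6 to 60.0 FPKM) or 2 tubule markers tested (sum of 4 in the table, 40.8 to 73.7 FPKM) was called. Of 2 leukocyte markers tested (sum of all 6, 60.9 to 71.2 FPKM), the locus shared by Cd68 and Eif4a1 was called higher and Csf1r lower in both comparisons with HG. Fragments of Cd68 and Eif4a1 cannot be separated in this table. Ptprc and Adgre1 were at 0.0275 and 0.00446 FPKM. The part of these markers in the core protein results was not tested. In RNA from whole cultures, fewer cells of a type and less RNA per cell cannot be told apart.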

How the data were processed

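The 6 libraries were assigned to HG, HG + rFGF1WT and HG + rFGF1ΔHBS, with 2 in each, by their labels. The authors made poly(A) libraries, sequenced them in pairs and deposited 1 table of FPKM, summarized with edgeR per their methods. The submitters' processing notes name HISAT2 2.0, StringTie 1.3.0, Bowtie 0.12.2 and the build mm8, with no roles. Since 99.6% of the 78903 Ensembl transcripts listed are in GENCODE M21 (GRCm38), positions were taken from that annotation, and mm8 coordinates were not used.

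All 10 genes had exactly 1 locus. The members and the gene lists were chosen with earlier results of these data known. log2(FPKM + 1) was fitted in 1 model of all 6 libraries (limma 3.58.1 with a trend, R 4.3.3) over the 10562 loci whose FPKM averaged 1 or more, for 3 comparisons, with Benjamini-Hochberg adjustment and a threshold of 0.05. The fit had 3 residual degrees of freedom. FPKM are not counts, so no count model was run. Named genes are all 10 members, from each list those called (at most 4) and the most abundant, and markers that the cell label needs, of which 1 is not reported here. Python 3.11.15, pandas 2.3.3 and matplotlib 3.10.9 served for summaries and plots, and the fit was tested on simulated data.

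Depth is not given. Low values fell on steps that, if 1 step is 1 fragment, imply 22300000 to 23200000 fragments per library; 59.7% to 63.9% of low values were within 2% of a step, where 11.5% to 12.0% of the range is, so whole reads were not recovered. Alternatives were a pseudocount of 0.1, no filter, a filter at 5 FPKM, median-ratio scaling, only the 4 libraries compared, a replicate block, and leaving out each library. Summing the loci of a symbol was not run, since each member has 1 locus.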

Additional observations from a re-analysis of the deposited data

How the results depend on the processing

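With a pseudocount of 0.1 or median-ratio scaling, 3 members were called against HG with either protein, as before. A filter at 5 FPKM gave 2 and 2, since Sdc3 was then not tested. Without a filter the count was 1 with rFGF1WT (Gpc1) and 2 with rFGF1ΔHBS, and loci called fell from 654 to 407 and from 661 to 386, over 24469 loci tested in place of 10562. Only the 4 libraries compared gave 0 members in each and 170 and 189 loci. Leaving out each library in turn gave 0 to 1 members with each protein, 134 to 195 loci with rFGF1WT and 118 to 198 with rFGF1ΔHBS. Between the proteins, 0 members were called by limma in every fit, and loci called went from 58 to 31 with the filter at 5 FPKM and ranged from 43 to 107 with a library left out.

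Same-numbered libraries did not deviate together (correlations of -0.02, 0.10 and -0.05), so the numbers were not taken as pairs. With a replicate block, 0 members and 41, 39 and 6 loci were called in the 3 comparisons.

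The direction of Sdc3, Sdc4 and Gpc1 against HG held in all alternatives in which they were tested. Of the members' differences, 13 recomputed values changed sign, none of them for a called difference. Scaling gave 0.0337 for Sdc1 with rFGF1WT and 0.0295 for Hspg2 with rFGF1ΔHBS. With a library left out, the difference from HG ranged from -0.0283 to 0.0153 for Sdc1 with rFGF1WT and, with rFGF1ΔHBS, from -0.275 to 0.509 for Sdc2, from -0.102 to 0.0908 for Hspg2 and from -0.0309 to 0.0826 for Agrn. Between the proteins it ranged from -0.959 to 0.0897 for Sdc2, from -0.0571 to 0.0450 for Sdc4 and from -0.0369 to 0.156 for Hspg2. The cause was not tested. Of the members' recomputed differences, 256 kept their direction and side of the threshold, 50 lost a call and 2 gained one. The 256 include differences that were never called, and only the called differences of Sdc4, Sdc3 and Gpc1 could lose a call. The 2 gained calls were those of Gpc4 against HG without HG replicate 2, at -0.94 with rFGF1WT and -0.86 with rFGF1ΔHBS. That fit rests on 1 HG library. The call was kept in 3 of 12 alternatives for Sdc4 with each protein. It was kept in 2 and 3 of 11 for Sdc3, and in 4 and 5 of 12 for Gpc1, with rFGF1WT and rFGF1ΔHBS. Most alternatives thus lost these calls. With 3 residual degrees of freedom, only differences well above the spread between libraries could be called.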
